A study of Homo sapiens with 20 samples.

Results

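The 10 genes described here control the passage of a cell from G1 into S phase, and they were picked by name, with no threshold on their values, from the 19593 genes counted in a SLAM-seq experiment. The choice was made with earlier results of these data known, so it was not blind to them. The 10 genes are the cyclins CCND3, CCNE1 and CCNE2, the cyclin-dependent kinases CDK4, CDK6 and CDK2, the kinase inhibitors CDKN1B and CDKN2D, the pocket protein RB1 and the transcription factor E2F1. Each was represented by its GENCODE transcript with the most reads over all libraries, and all 10 passed the filter on low counts. The cells were MM1.S, a human line established from multiple myeloma and wild type by its labels. They were treated with 10 nM dCBP-30, a degrader of the acetyltransferases CBP and p300, or received DMSO alone as vehicle, and were harvested after 2, 6 or 24 h. Each of these 6 groups has 3 libraries. These 18 libraries came from cells given 4-thiouridine (4sU) for 1 h before harvest, and a further 2 libraries, for which the labels give no treatment, were made without 4sU. The methods give triplicate samples per condition, and no source used here says that they were separate cultures, so p-values measure the spread between these libraries, which may be technical.

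D-type cyclins such as CCND3 bind CDK4 and CDK6, and E-type cyclins bind CDK2. The active kinases phosphorylate RB1, which then releases E2F factors to switch on genes of DNA replication, CCNE1, CCNE2 and E2F1 itself among them. The product of CDKN1B inhibits cyclin E with CDK2, and the product of CDKN2D, an INK4 protein, inhibits CDK4 and CDK6. Myeloma, a cancer of plasma cells, is known for raised levels of D-type cyclins.

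Promoter sequences in the RefSeq table (GRCh38.p14), which run from 250 bases before to 50 bases after a start site, matched 8 of the 10 genes in 11 entries. CDK2 and CCNE2 had no entry, so their promoters were not searched. The 11 entries were searched on both strands for the E-box CACGTG, the letters bound by MYC and related factors, and for 4 spellings of an E2F site, TTTCCCGC, TTTGGCGC, TTTGCCGC and TTTCGCGC. Of 35116 promoters of this length, 7.26% held the E-box and 3.31% held an E2F spelling. The 4 windows of 30 bases that follow are shown because they hold all the matches found in promoters of these 8 genes, and because E2F1, CDK4 and CDK6 are among the genes whose T>C reads fell. The capitals mark the matched letters, and all 4 windows are on the minus strand.
E2F1 promoter, chr20:33686393-33686422: tttcGCGGCAAAaaggaTTTGGCGCgtaaa
CDK4 promoter, first window, chr12:57752499-57752528: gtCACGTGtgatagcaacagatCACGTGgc
CDK4 promoter, second window, chr12:57752394-57752423: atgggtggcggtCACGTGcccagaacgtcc
CDK6 promoter, chr7:92836526-92836555: cgaggccgcggaCACGTGcggagagccgac
The E2F1 window holds 2 E2F spellings, 1 on each strand and without overlap, and the first lies 33 bases before the start site. The CDK4 windows begin their matches 216 and 101 bases before the start site, whereas the E-box of CDK6 lies after it. A match is a description of letters and not of a bound factor.

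In SLAM-seq, 4sU taken up into new RNA is alkylated and then sequenced as a T-to-C change. Reads that carry such a change are called T>C reads and stand for RNA transcribed within the labelling hour. The labelled libraries held between 12439665 and 18727385 reads on genes, and T>C reads made up 4.71% to 8.62% of them, against 0.794% to 0.809% in the libraries without 4sU. Conversions per T>C read were 1.47 ± 0.0432 (SD, n = 3) under dCBP-30 at 24 h and 2.48 ± 0.0253 in DMSO at 24 h, while the other labelled groups averaged between 2.17 and 2.24. All 8 plasma cell markers were detected, and their summed level was 4440 to 5989 RPM in the DMSO libraries, 3220.5 to 3886 RPM under dCBP-30 at 2 h, 975 to 1058 RPM at 6 h and 541 to 717 RPM at 24 h. Of 9 markers of other cell types, CD3D and EPCAM were at 0 in the labelled libraries and the sum of all 9 was 4.72 to 18.2 RPM. RPM is reads scaled to a library size of 1000000, where library size means total reads multiplied by the TMM factor, which was 0.873 to 0.935 in DMSO and reached 1.29 to 1.32 under dCBP-30 at 24 h. All libraries came from the MM1.S line, so the marker sums describe RNA of that line. The paper reports lower expression of IRF4 and PRDM1 under the degrader, and both genes are among the plasma cell markers summed here. Bulk counts do not show whether all cells of the line changed alike. The part of these differences in the results below was not tested.

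In T>C reads few of the 10 genes differed between dCBP-30 and DMSO at 2 h and most differed at 24 h. A gene was called where edgeR's quasi-likelihood test, adjusted over all genes tested, gave an adjusted p under 0.05 and the fold change was more than 2. At 2 h CDKN1B fell and CCND3 rose, so that 1 of 10 was called lower beside 7.14% of the 10083 genes tested and 1 of 10 higher beside 1.66%. At 6 h CDK6 and CDKN1B fell (2 of 10, beside 17.1%), and edgeR called 0 higher beside 2.36%, with CDK2 higher at an unadjusted p under 0.05 and 0 called by DESeq2. At 24 h CCND3, CDK4, CDK6, CDK2, CCNE1, CCNE2 and E2F1 fell, which is 7 of 10 beside 31.2% of all genes tested, and edgeR called 0 higher beside 2.18%. CDKN2D was the 1 gene higher at an unadjusted p under 0.05 at 24 h, and DESeq2 called 0 higher with size factors from total reads and 1, CDKN2D, with size factors from T>C reads. The median log2 fold change of the 10 genes was 0.11, -0.63 and -1.87 at 2, 6 and 24 h, beside 0.05, -0.27 and -0.69 for all genes tested. When each library was scaled by its T>C reads instead, the median of all genes lay at -0.04 at 24 h and 5 of the 10 genes were called lower with 1 called higher.

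In total reads, which hold older RNA as well, CDKN1B fell at 2 h (1 of 10, beside 1.25% of 12267 genes tested), CDK6 fell at 6 h (1 of 10, beside 8.67%), and CCND3, CDK4, CDK6, CDK2, CCNE1, CCNE2 and E2F1 fell at 24 h (7 of 10, beside 16.1%). CDKN2D rose at 24 h (1 of 10, beside 15.0%). Both edgeR and DESeq2 called 0 of the 10 higher at 2 h, beside 0.457% of all genes, and 0 at 6 h, beside 7.47%, with 3 and 4 genes higher at an unadjusted p under 0.05. The 4 at 6 h, CDK2, CCND3, E2F1 and CDKN2D, had adjusted p of 1.1e-07 to 0.045 by edgeR and stayed within 2-fold. CDK4 and CDKN1B were lower within 2-fold at 6 h, with adjusted p of 3.6e-04 and 2.9e-07. The median log2 fold change was 0.05, -0.02 and -1.56 over the 10 genes, beside -7.1e-04, 0.02 and 0.05 over all genes tested.

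**Figure D1:**
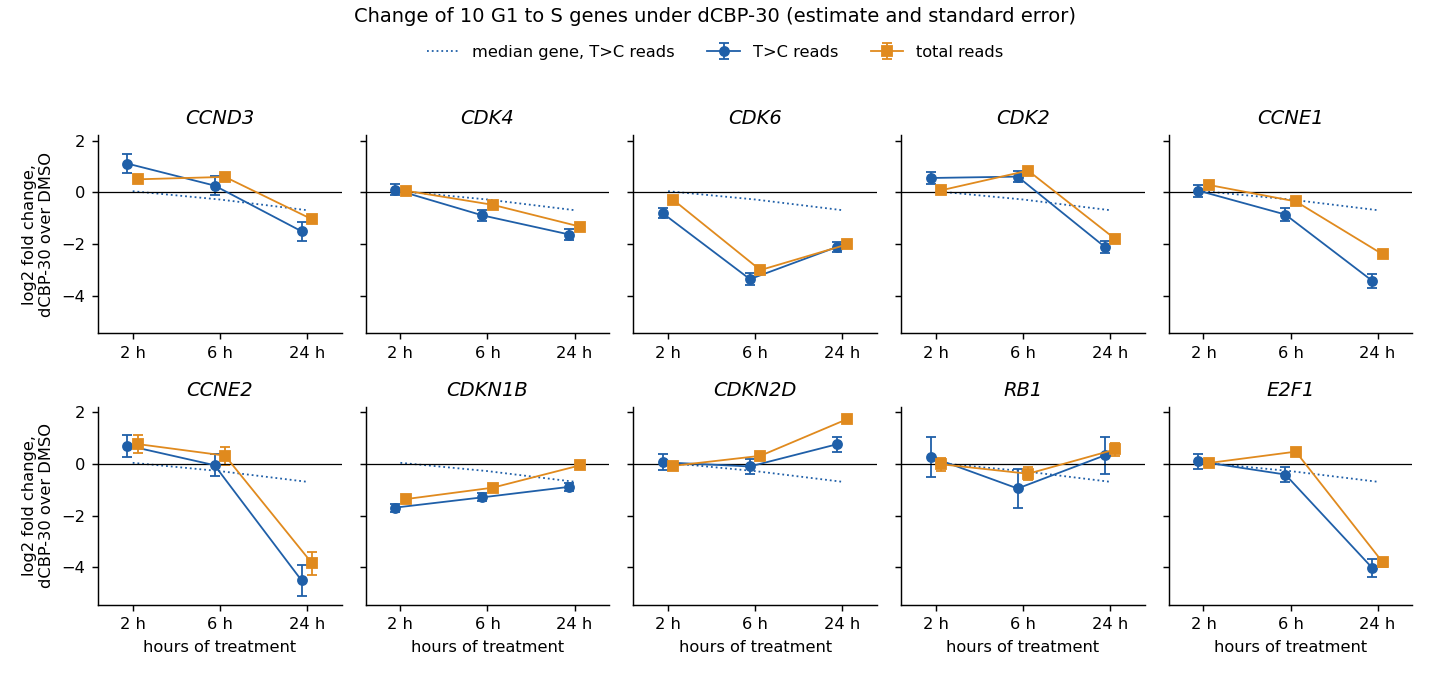
The log2 fold change of dCBP-30 over DMSO (y axis) is plotted against hours of treatment (x axis) for each of the 10 genes, in T>C reads (circles) and total reads (squares), with bars of 1 standard error from edgeR and a dotted line for the median of all genes in T>C reads. CDK6 is lowest at 6 h, CDKN1B is lowest at 2 h and moves toward 0, and E2F1, CCNE1 and CCNE2 reach between -3.43 and -4.52 in T>C reads at 24 h.

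CCND3 was the member whose T>C reads were higher at 2 h and lower at 24 h. This D-type cyclin was counted on its 3′ UTR at chr6:41934934-41935939 of hg38 (minus strand, ENSG00000112576). At 2 h its T>C reads were 4.23, 6.40 and 6.95 RPM in dCBP-30 libraries 1, 2 and 3 and 2.15, 2.96 and 2.99 RPM in DMSO. The lowest dCBP-30 library stood above the highest DMSO library, and CCND3 rose 2.17-fold (log2 fold change 1.12, SE 0.37, adjusted p = 0.035). This call was lost without dCBP-30 2 h replicate 2 or 3 or without any 1 of the 3 DMSO 2 h libraries, with log2 fold changes of 0.98 to 1.20 and adjusted p of 0.062 to 0.16, and without a filter on low counts (adjusted p = 0.056) or with the background subtracted (0.051). At 6 h the groups overlapped, with 3.65, 3.27 and 5.52 RPM under dCBP-30 and 3.19, 3.35 and 3.80 RPM in DMSO (log2 fold change 0.27, SE 0.36, adjusted p = 0.66). At 24 h every dCBP-30 library, at 2.46, 1.70 and 2.15 RPM, was below every DMSO library, at 7.77, 4.95 and 5.29 RPM, and CCND3 fell 2.85-fold (log2 fold change -1.51, SE 0.37, adjusted p = 5.8e-04). With libraries scaled by their T>C reads the 24 h estimate was -0.87 (adjusted p = 0.061), which is no call.

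Total reads of CCND3 were 72.1, 87.0 and 96.9 RPM under dCBP-30 and 63.1, 54.0 and 51.5 RPM in DMSO at 6 h, with no overlap and a log2 fold change of 0.60 (SE 0.16, adjusted p = 0.0037), under the 2-fold limit. At 24 h they fell to 29.9, 33.1 and 25.7 RPM from 71.1, 54.6 and 57.1 RPM in DMSO (log2 fold change -1.04, SE 0.16, adjusted p = 5.0e-06). That estimate sat near the 2-fold limit and was -0.95 without dCBP-30 24 h replicate 3 and -0.92 without DMSO 24 h replicate 1, and -0.52 without TMM factors. The DMSO libraries differed as well, since T>C reads of CCND3 were higher in DMSO at 24 h than in DMSO at 2 h (log2 difference 1.15, SE 0.37, adjusted p = 0.049), a call that 12 of the 18 single-library omissions ended, with values of 0.92 to 1.27 and adjusted p up to 0.23. No other member passed that test between DMSO groups (1 of 10 called higher, beside 2.52% of all genes). The median log2 difference of all genes tested between these DMSO groups was 0.49 in T>C reads, and 9 of the 10 members lay above 0.

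CDK6, a kinase partner of D-type cyclins, had its lowest level at 6 h. Its reads came from 10219 bases of 3′ UTR at chr7:92604921-92615139 (minus strand, ENSG00000105810). At 2 h its T>C reads were 20.7, 30.5 and 18.8 RPM under dCBP-30 and 38.1, 48.9 and 36.0 RPM in DMSO, which did not overlap, and the estimate stayed within 2-fold (log2 fold change -0.81, SE 0.20, adjusted p = 0.0022). Without dCBP-30 2 h replicate 2, the highest of its group, the 2 h estimate was -1.06 and passed the call. At 6 h the dCBP-30 libraries held 6.05, 3.05 and 3.06 RPM and the DMSO libraries 40.3, 42.8 and 42.4 RPM, a 10.3-fold fall (log2 fold change -3.37, SE 0.22, adjusted p = 2.1e-19). The libraries without 4sU held 2.06 and 1.58 RPM of such reads, together 0.692% of their CDK6 reads. With that share of each library's own CDK6 reads subtracted from its T>C reads, the 6 h estimate was -3.38. At 24 h CDK6 stood at 9.74, 11.5 and 14.7 RPM under dCBP-30, above all 3 of the 6 h dCBP-30 libraries and below the 53.1, 51.1 and 51.8 RPM of DMSO (log2 fold change -2.12, SE 0.20, adjusted p = 4.2e-13). The change at 24 h was smaller than the change at 6 h (difference 1.25, SE 0.29, adjusted p = 0.0015).

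Total reads of CDK6 followed the same order. They were 216, 266 and 261 RPM at 2 h, 32.8, 27.9 and 38.9 RPM at 6 h and 64.2, 80.3 and 71.1 RPM at 24 h under dCBP-30, while the DMSO libraries held between 255 and 328 RPM at all times. The fall was 8.07-fold at 6 h (log2 fold change -3.01, SE 0.13, adjusted p = 1.5e-15) and 4.04-fold at 24 h (log2 fold change -2.01, SE 0.12, adjusted p = 6.1e-13), and the difference between these changes was 1.00 (SE 0.17, adjusted p = 5.9e-05). Ordered by mean total level, DMSO at 2 h and at 24 h overlapped, as did DMSO at 6 h and dCBP-30 at 2 h, and the remaining neighbours in the order, down to dCBP-30 at 24 h and then at 6 h, did not overlap.

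CDK4, the other kinase partner of D-type cyclins, was called at 24 h and stood lower at 6 h. Its T>C reads at 2 h were 15.5, 12.8 and 14.8 RPM under dCBP-30 and 14.9, 12.8 and 12.3 RPM in DMSO, with overlap. At 6 h they were 6.71, 8.44 and 6.62 RPM against 11.9, 13.4 and 15.1 RPM, without overlap but within 2-fold (log2 fold change -0.89, SE 0.23, adjusted p = 0.0017), and leaving out dCBP-30 6 h replicate 2 gave -1.01, which passed the call. At 24 h they were 4.87, 6.76 and 6.97 RPM against 17.9, 20.2 and 19.6 RPM, and CDK4 fell 3.10-fold (log2 fold change -1.63, SE 0.23, adjusted p = 2.3e-08). Total reads of CDK4 stood at 189, 192 and 178 RPM under dCBP-30 and 246, 281 and 252 RPM in DMSO at 6 h (log2 fold change -0.48, SE 0.10, adjusted p = 3.6e-04), and fell at 24 h to 105, 104 and 104 RPM from 241, 278 and 265 RPM (log2 fold change -1.32, SE 0.10, adjusted p = 2.9e-11), a call that was lost without TMM factors (-0.80). The libraries without 4sU held 2.77 and 1.503 RPM of T>C reads of CDK4, together 0.888% of their CDK4 reads. Subtracting that share of each library's own CDK4 reads from its T>C reads left the 24 h estimate at -1.68. With libraries scaled by their T>C reads the 24 h estimate of CDK4 was -0.98, within 2-fold. The 3′ UTR counted for CDK4 lies at chr12:57747727-57749312 (minus strand, ENSG00000135446) and is contained in the 3′ UTR of TSPAN31 on the opposite strand, for which 18378 reads were counted beside 68001 for CDK4. The smaller count on the UTR that contains the other shows that reads of the pair were separated by strand.

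**Figure D2:**
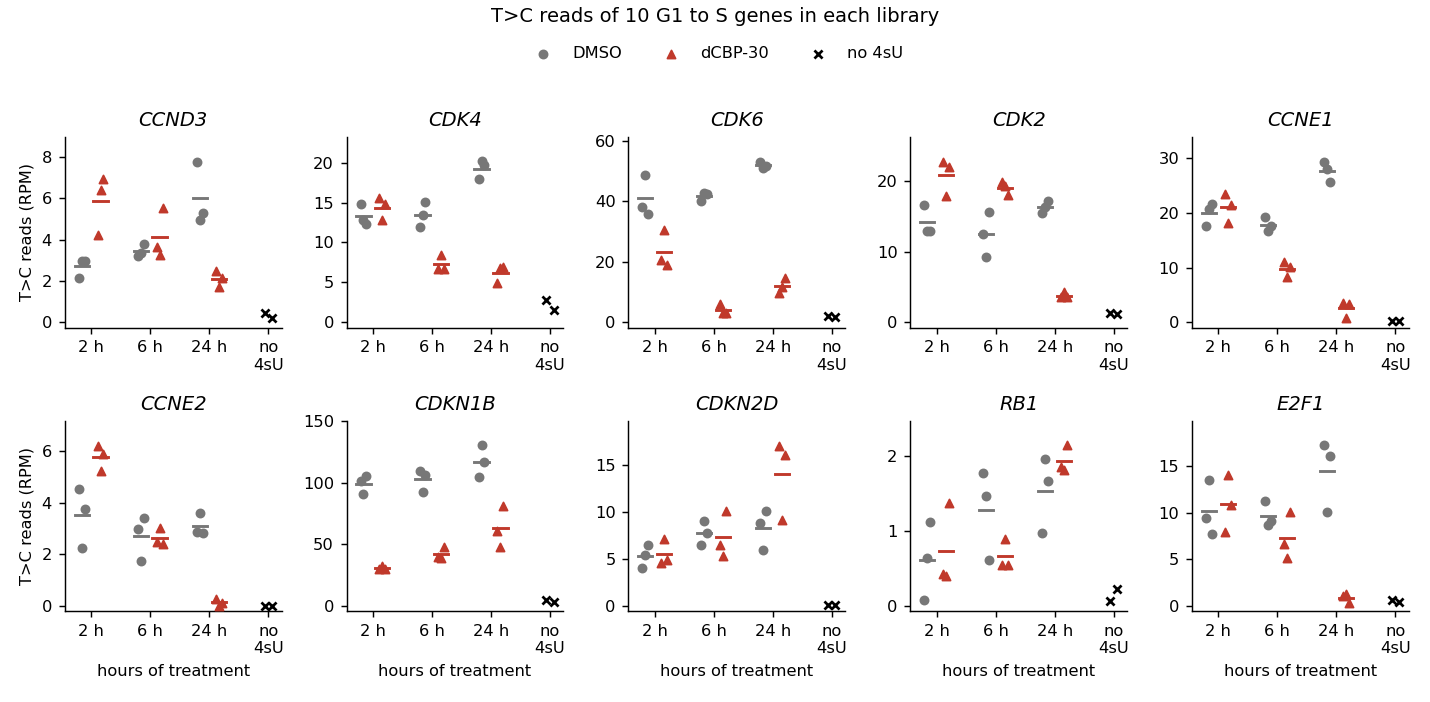
T>C reads in RPM (y axis, 1 panel a gene, each from 0) are plotted by hours of treatment (x axis) for every library, with circles for DMSO, triangles for dCBP-30, a bar at the mean of 3 libraries and crosses for the 2 libraries without 4sU. CDK6 triangles lie between 3.05 and 6.05 RPM at 6 h, and CDKN1B triangles between 30.1 and 31.9 RPM at 2 h with all DMSO circles of CDKN1B at or above 91.0 RPM.

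CDK2 and the cyclins that bind it, CCNE1 and CCNE2, fell at 24 h. At the earlier times none of them was called, and CCNE1 was lower at 6 h while CDK2 was higher. For CDK2 (chr12:55971626-55972789, plus strand, ENSG00000123374), T>C reads at 2 h were 22.8, 17.9 and 22.03 RPM under dCBP-30 and 16.6, 12.9 and 13.0 RPM in DMSO, higher in each dCBP-30 library but short of the test (log2 fold change 0.56, SE 0.21, adjusted p = 0.086). At 6 h they were 19.8, 19.3 and 18.02 RPM against 12.5, 9.18 and 15.6 RPM, again without overlap (log2 fold change 0.61, SE 0.21, adjusted p = 0.027). At 24 h the dCBP-30 libraries held 3.56, 4.23 and 3.54 RPM and the DMSO libraries 15.5, 16.3 and 17.2 RPM, and CDK2 fell 4.32-fold (log2 fold change -2.11, SE 0.23, adjusted p = 2.0e-11). Total reads of CDK2 went from higher to lower between 6 and 24 h. They were 382, 389.8 and 401 RPM under dCBP-30 and 228, 209 and 216 RPM in DMSO at 6 h, with no overlap and a ratio of 1.80 that is under the 2-fold limit (log2 fold change 0.85, SE 0.10, adjusted p = 1.1e-07). At 24 h they fell to 65.1, 60.9 and 58.4 RPM from 193, 232 and 219 RPM (log2 fold change -1.80, SE 0.10, adjusted p = 6.5e-14). Without TMM factors the 6 h estimate of CDK2 was 1.16 and passed the call, with the median of all genes at 0.35 under that scaling.

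CCNE1, an E-type cyclin whose 3′ UTR lies at chr19:29823778-29824312 (plus strand, ENSG00000105173), differed by less than the spread between libraries in T>C reads at 2 h, with 23.5, 18.2 and 21.4 RPM under dCBP-30 and 17.7, 20.7 and 21.7 RPM in DMSO (log2 fold change 0.07, SE 0.23, adjusted p = 0.92). At 6 h its T>C reads were 11.1, 8.33 and 10.1 RPM against 19.2, 16.6 and 17.6 RPM, lower in every dCBP-30 library and within 2-fold (log2 fold change -0.86, SE 0.24, adjusted p = 0.0044). At 24 h they were 3.50, 0.824 and 3.33 RPM against 29.3, 28.1 and 25.6 RPM, and CCNE1 fell 10.8-fold (log2 fold change -3.43, SE 0.27, adjusted p = 1.1e-16). The second dCBP-30 library of 24 h was the lowest, and the libraries without 4sU held 0.258 and 0.301 RPM of T>C reads. Total reads of CCNE1 were 72.0, 77.9 and 70.9 RPM under dCBP-30 and 57.1, 64.1 and 59.3 RPM in DMSO at 2 h, which did not overlap and did not pass the test (log2 fold change 0.29, SE 0.14, adjusted p = 0.30), and at 24 h they fell to 11.5, 8.35 and 14.2 RPM from 64.7, 58.7 and 57.2 RPM (log2 fold change -2.41, SE 0.15, adjusted p = 8.6e-13).

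CCNE2, the second E-type cyclin, was counted on few reads (chr8:94879770-94881631, minus strand, ENSG00000175305). At 2 h its T>C reads were 6.21, 5.21 and 5.88 RPM under dCBP-30 and 4.54, 2.26 and 3.73 RPM in DMSO, with every dCBP-30 library above DMSO and no call (log2 fold change 0.72, SE 0.43, adjusted p = 0.35). At 24 h the dCBP-30 libraries held 5, 0 and 2 T>C reads of CCNE2 and the DMSO libraries 44, 60 and 39, and CCNE2 fell (log2 fold change -4.52, SE 0.59, adjusted p = 4.8e-09). The sum of 7 reads against 143 gives a ratio of 0.0409 after scaling, with a 95% interval for counting error of 0.0161 to 0.0864. Total reads fell at 24 h as well, to 0.274, 0.165 and 0.376 RPM from 4.15, 4.47 and 3.48 RPM (log2 fold change -3.85, SE 0.44, adjusted p = 4.0e-08). The UTR overlaps that of INTS8 on the opposite strand, with 3611 reads counted for INTS8 and 1110 for CCNE2 over all libraries.

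CDKN1B, which encodes an inhibitor of cyclin-dependent kinases, fell at the 2 earlier times in T>C reads and had a smaller estimate at 24 h. Its T>C reads at 2 h were 30.2, 31.9 and 30.1 RPM under dCBP-30 and 102, 91.0 and 105 RPM in DMSO, a 3.23-fold fall (log2 fold change -1.69, SE 0.16, adjusted p = 3.6e-13). The 3 dCBP-30 libraries lay close together and far below the lowest DMSO library. At 6 h the libraries held 39.3, 39.2 and 47.5 RPM under dCBP-30 and 109, 92.9 and 107 RPM in DMSO (log2 fold change -1.29, SE 0.16, adjusted p = 7.0e-10). At 24 h the values were 61.2, 47.7 and 81.5 RPM and 104, 130.5 and 117 RPM, without overlap and within 2-fold (log2 fold change -0.89, SE 0.15, adjusted p = 3.3e-06), and the estimate passed the call without dCBP-30 24 h replicate 3 (-1.11) and with reads summed over transcripts (-1.04). The 24 h estimate depended on the scaling, at -0.25 (adjusted p = 0.18) when libraries were scaled by their T>C reads, and the 6 h estimate at that scaling was -0.98, just within 2-fold.

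Total reads of CDKN1B moved back to the DMSO level over the time course. Under dCBP-30 they were 65.5, 57.2 and 59.3 RPM at 2 h, 84.8, 88.8 and 96.2 RPM at 6 h and 146, 135 and 161 RPM at 24 h. In DMSO they were 154, 144 and 170.0 RPM, 177, 157 and 175 RPM and 136, 168 and 155 RPM at the same times. The groups did not overlap at 2 and 6 h and overlapped at 24 h. The log2 fold change was -1.36 at 2 h (SE 0.11, adjusted p = 3.3e-09), -0.92 at 6 h (SE 0.11, adjusted p = 2.9e-07), under the 2-fold limit, and -0.05 at 24 h (SE 0.11, adjusted p = 0.69), with a 95% interval of -0.27 to 0.16. Without TMM factors the 24 h estimate was 0.47 (adjusted p = 5.6e-04), where the median of all genes stood at 0.58. The difference between the 24 h and the 2 h change was 1.31 (SE 0.16, adjusted p = 2.5e-07). The transcript counted has a 3′ UTR of 2 exons at chr12:12718947-12722369 (plus strand, ENSG00000111276).

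CDKN2D, which encodes an INK4 inhibitor of CDK4 and CDK6, was the member that rose in total reads at 24 h. Its total reads (chr19:10566460-10567057, minus strand, ENSG00000129355) were 98.99, 88.5 and 103 RPM under dCBP-30 and 29.1, 31.1 and 26.2 RPM in DMSO at 24 h, a 3.36-fold rise (log2 fold change 1.75, SE 0.13, adjusted p = 1.6e-11). All 3 dCBP-30 libraries were above every other labelled library. At 6 h they were 50.2, 46.8 and 54.6 RPM against 39.7, 42.0 and 39.8 RPM, without overlap and within 2-fold (log2 fold change 0.32, SE 0.13, adjusted p = 0.045), and at 2 h they overlapped, at 29.1, 31.6 and 33.6 RPM and 28.6, 35.8 and 34.6 RPM. T>C reads of CDKN2D at 24 h were 17.1, 9.12 and 16.04 RPM under dCBP-30 and 8.81, 5.96 and 10.1 RPM in DMSO, an overlap made by dCBP-30 24 h replicate 2 (log2 fold change 0.77, SE 0.29, adjusted p = 0.027). Without that library the estimate was 1.00 (adjusted p = 0.0070) and passed the call, and with libraries scaled by their T>C reads it was 1.40. At 2 and 6 h the T>C log2 fold changes of CDKN2D were 0.07 and -0.09, with overlapping groups.

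**Figure D3:**
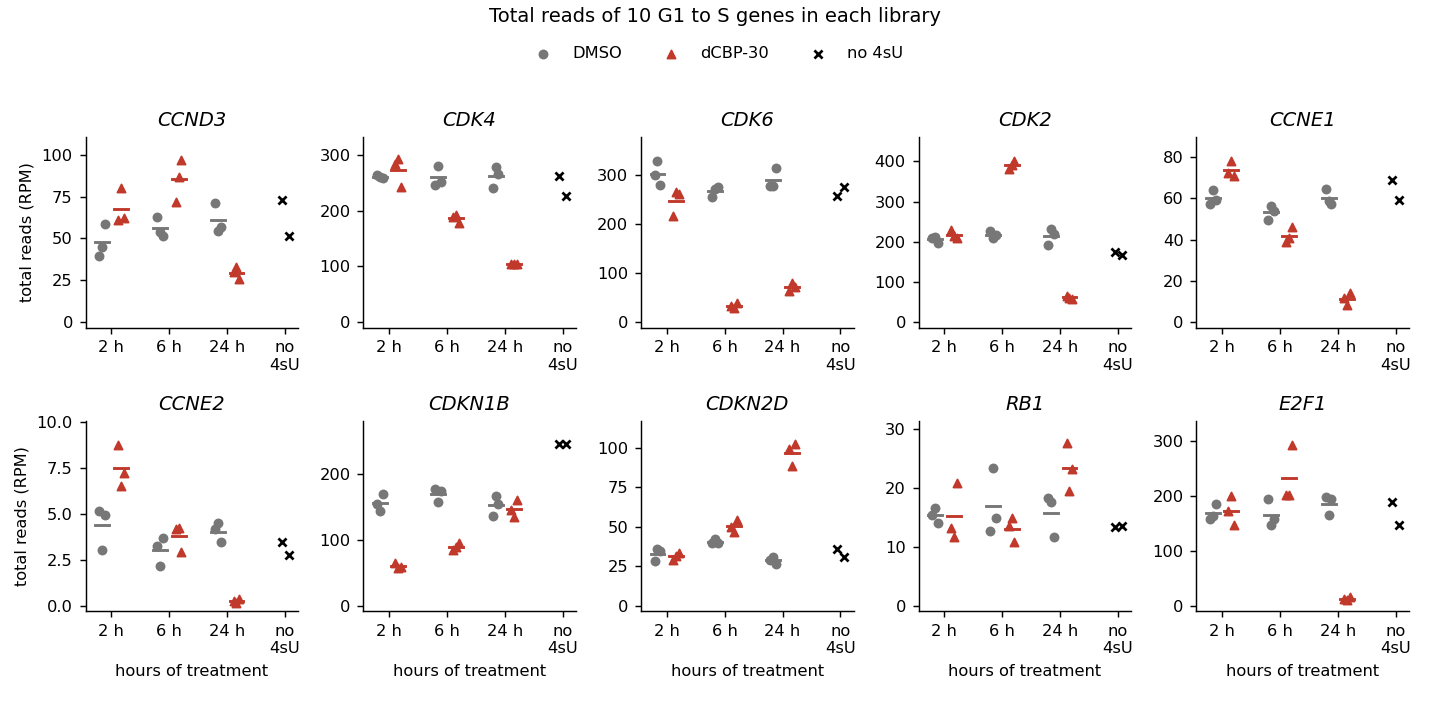
Total reads in RPM (y axis, 1 panel a gene, each from 0) are plotted by hours of treatment (x axis) for every library, with circles for DMSO, triangles for dCBP-30, a bar at the mean of 3 libraries and crosses for the 2 libraries without 4sU. The triangles of CDKN2D at 24 h lie at 88.5 to 103 RPM above all circles, and those of CDKN1B overlap the circles at 24 h only.

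E2F1, the activator of replication genes, fell at 24 h in both T>C and total reads. At 24 h its T>C reads were 1.04, 1.26 and 0.322 RPM under dCBP-30 (19, 23 and 6 reads) and 17.2, 10.1 and 16.1 RPM in DMSO, a 16.4-fold fall (log2 fold change -4.04, SE 0.36, adjusted p = 1.5e-14). The libraries without 4sU held 0.645 and 0.376 RPM of T>C reads beside 189 and 147 RPM of total reads, a share of 0.342% and 0.255%. The lowest dCBP-30 library was below both in RPM and above both in share, at 2.05%. With the share of both libraries without 4sU together (0.307%) of each library's own E2F1 reads subtracted, the estimate was -4.07. Total reads (chr20:33675477-33676731, minus strand, ENSG00000101412) fell to 13.0, 10.8 and 15.7 RPM from 198, 165 and 195 RPM (log2 fold change -3.82, SE 0.17, adjusted p = 1.7e-15). At 6 h total reads were 202, 201 and 292 RPM against 195, 147 and 157 RPM, each dCBP-30 library above DMSO and the estimate within 2-fold (log2 fold change 0.48, SE 0.15, adjusted p = 0.014), while the T>C reads overlapped (log2 fold change -0.41, SE 0.30, adjusted p = 0.36). At 2 h neither measure passed the test, with log2 fold changes of 0.11 in T>C reads and 0.04 in total reads.

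RB1, the pocket protein that the cyclin-dependent kinases phosphorylate, had few T>C reads and no call at any time. At 24 h its T>C reads were 1.86, 1.81 and 2.15 RPM (34, 33 and 40 reads) under dCBP-30 and 0.972, 1.97 and 1.67 RPM (15, 33 and 23 reads) in DMSO, and the 95% interval of the log2 fold change was -1.06 to 1.73. The intervals at 2 h and 6 h, -1.24 to 1.80 and -2.41 to 0.51, were as wide. Those at 2 h and 24 h hold a 2-fold fall and a 2-fold rise, and that at 6 h holds a 2-fold fall only. Such changes are therefore not excluded at this depth. Total reads of RB1 (chr13:48480072-48481890, plus strand, ENSG00000139687) at 24 h were 27.7, 19.4 and 23.1 RPM under dCBP-30 and 18.3, 17.5 and 11.6 RPM in DMSO, without overlap and within 2-fold (log2 fold change 0.56, SE 0.24, adjusted p = 0.046). Without TMM factors that estimate was 1.08 and passed the call, with the median of all genes at 0.58. At 2 and 6 h they overlapped, with log2 fold changes of -0.01 and -0.38.

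The change under dCBP-30 was compared between time points to see which genes differed over the time course, and any pair of these differences has the libraries of 1 time point in common. In T>C reads the 24 h change was below the 2 h change for 7 of the 10 genes at an adjusted p under 0.05, beside 23.0% of all genes, and above it for CDKN1B, beside 3.02%. The differences were -5.24 for CCNE2, -4.14 for E2F1, -3.50 for CCNE1, -2.67 for CDK2, -2.63 for CCND3, -1.74 for CDK4 and -1.30 for CDK6 on the log2 scale, and 0.81 for CDKN1B (SE 0.22, adjusted p = 0.0037). For CDK6 the difference was -0.66 (adjusted p = 0.091) with libraries scaled by their T>C reads, and for CDKN1B it was 0.66 (adjusted p = 0.084) with reads summed over transcripts. Between 2 and 6 h CDK6 differed by -2.55 (adjusted p = 2.2e-09) and CDK4 by -0.999 (adjusted p = 0.036), which is 2 of 10 beside 7.35% of all genes. The CDK4 value lost its call in 8 of 18 omissions of a library, with values over all 18 omissions of -1.12 to -0.91 and adjusted p up to 0.11, the libraries being dCBP-30 replicates 1 and 3 and DMSO replicates 2 and 3 of both 2 h and 6 h, and it was -0.69 (adjusted p = 0.25) with libraries scaled by their T>C reads. Between 6 and 24 h CCNE2, E2F1, CDK2, CCNE1 and CCND3 had a lower change at 24 h (5 of 10, beside 9.13%), with differences of -4.47, -3.63, -2.72, -2.58 and -1.77, and CDK6 a higher one (1 of 10, beside 2.94%). The CCND3 difference had an adjusted p of 0.056 without dCBP-30 6 h replicate 3 and 0.067 without DMSO 24 h replicate 1.

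In total reads all 10 genes differed between the 6 h and 24 h changes, with 6 lower, beside 16.6% of all genes, and 4 higher, beside 15.5%. The lower ones were E2F1 (-4.30), CCNE2 (-4.18), CDK2 (-2.65), CCNE1 (-2.06), CCND3 (-1.65) and CDK4 (-0.84). The higher ones were CDKN2D (1.43), CDK6 (1.00), RB1 (0.94) and CDKN1B (0.86). The RB1 value lost its call without any 1 of 5 libraries, namely dCBP-30 6 h replicate 3, DMSO 6 h replicate 2, dCBP-30 24 h replicates 1 and 3 and DMSO 24 h replicate 3, with values of 0.64 to 0.95 and adjusted p of 0.056 to 0.16. Against the 2 h change, the 24 h change was lower for 7 of 10 genes, beside 22.8%, and higher for CDKN2D (1.82) and CDKN1B (1.31), beside 18.4%. Between 2 and 6 h CDK6 (-2.72), CCNE1 (-0.64) and CDK4 (-0.55) were lower (3 of 10, beside 10.7%) and CDK2 (0.77) was higher (1 of 10, beside 5.05%). The CCNE1 value lost its call in 7 of 18 omissions of a library, by single omission of dCBP-30 2 h replicate 2, DMSO 2 h replicate 1 or 3, dCBP-30 6 h replicate 1 or 2 or DMSO 6 h replicate 2 or 3, with values over all 18 of -0.71 to -0.59 and adjusted p up to 0.069. Between DMSO at 24 h and at 2 h, edgeR called 0 of the 10 genes in total reads, beside 0.0326% of all genes lower and 0.0245% higher, and 1 was higher at an unadjusted p under 0.05.

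The share of a gene's reads that carry a T>C conversion needs no scaling between libraries, and CDKN1B was the member whose share was lower at all 3 times. At 2 h its share in DMSO was 65.8, 63.4 and 62.0%, at 6 h 61.8, 59.1 and 60.8%, and by 24 h it was 76.9, 77.8 and 75.1%. Under dCBP-30 it was 46.1, 55.8 and 50.7%, 46.4, 44.2 and 49.4% and 41.9, 35.3 and 50.6%. At each time all 3 dCBP-30 libraries lay below all 3 DMSO libraries. The log2 odds ratio was -0.76 at 2 h (SE 0.23, adjusted p = 0.046; 1 of 10 genes, beside 5.12% of all genes), -0.81 at 6 h (SE 0.23, adjusted p = 0.027; 1 of 10, beside 6.84%) and -2.15 at 24 h (SE 0.23, adjusted p = 4.3e-07; 3 of 10, beside 25.4%). The 2 h call was lost in 13 of 18 omissions of a library, with values over all 18 of -0.91 to -0.63 and adjusted p up to 0.22, and held without dCBP-30 2 h replicate 2, dCBP-30 6 h replicate 2 or 3 and dCBP-30 24 h replicate 2 or 3. The 6 h call was lost without dCBP-30 6 h replicate 1 or 2 or any DMSO 6 h library, with adjusted p up to 0.11. With reads summed over transcripts the adjusted p was 0.10 at 2 h and 0.14 at 6 h.

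At 24 h the share of CCNE1 was 30.3, 9.87 and 23.5% under dCBP-30 and 45.4, 47.8 and 44.7% in DMSO (log2 odds ratio -1.68, SE 0.38, adjusted p = 0.0027). The share of CDKN2D was 17.2, 10.3 and 15.6% under dCBP-30 and 30.3, 19.2 and 38.4% in DMSO (log2 odds ratio -1.28, SE 0.36, adjusted p = 0.013), with adjusted p of 0.073 without dCBP-30 24 h replicate 2 and 0.085 without DMSO 24 h replicate 3, and 0.053 with reads summed over transcripts. All 10 genes had a log2 odds ratio below 0 at 6 h and at 24 h, where the median of all genes was -0.33 and -0.79, after 0.02 at 2 h. At 24 h a T>C read of CDKN1B carried 1.96 ± 0.0900 conversions under dCBP-30 and 3.34 ± 0.109 in DMSO (SD, n = 3), beside 1.47 and 2.48 over all genes, and the part of this difference in the T>C reads and shares at 24 h was not tested. Without 4sU the share of CDKN1B was 2.01% (77 of 3823 reads, 95% Wilson interval 1.61% to 2.51%) and 1.13% (37 of 3267 reads, 0.823% to 1.56%), and CCNE2 had 0 T>C reads of 91, which allows a share of up to 3.30%. These intervals and the limit of 3 counts cover counting error only. The share of CCNE2 was 88.1, 74.4 and 75.8% in DMSO at 2 h, so most reads of this gene carried a conversion, and no difference of its share passed the test, with a log2 odds ratio at 24 h of -1.96 (SE 1.32) on 5, 3 and 7 reads under dCBP-30.

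**Figure D4:**
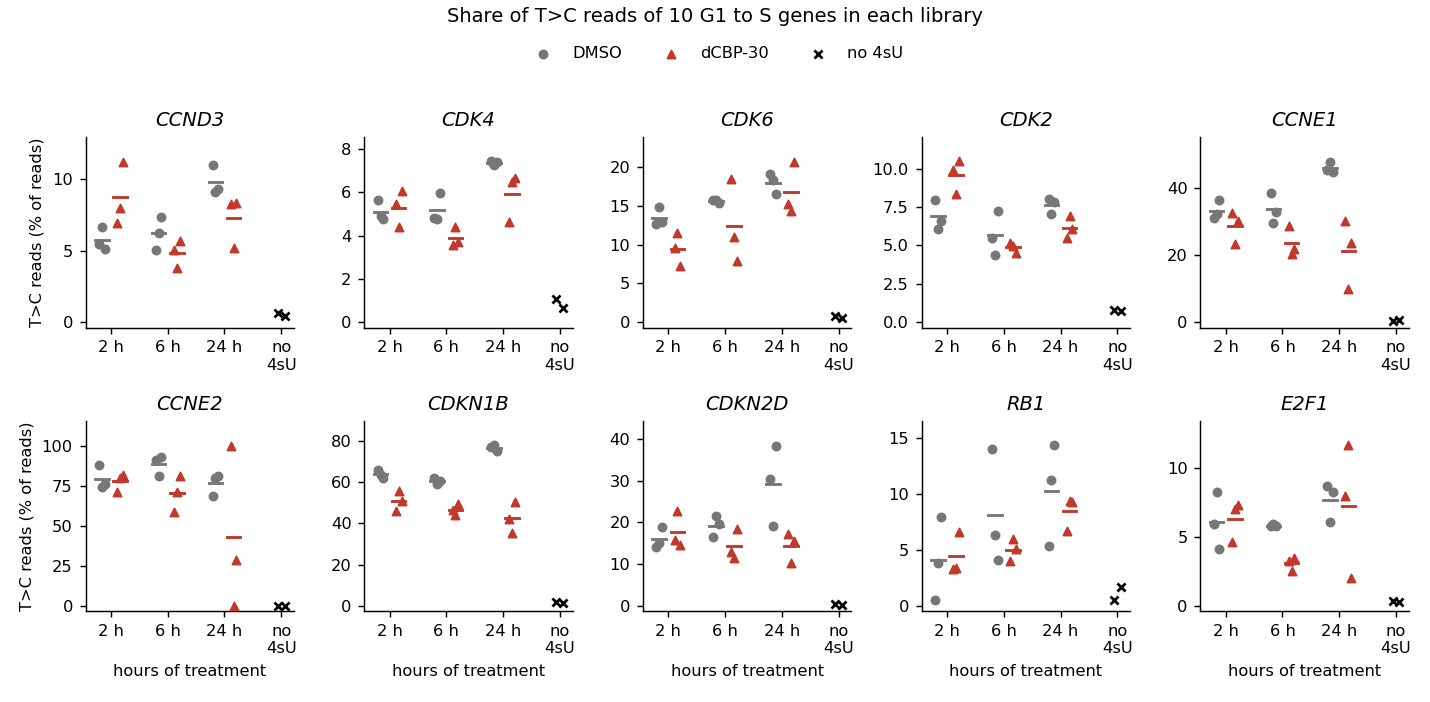
The share of reads with a T>C conversion in percent (y axis, 1 panel a gene, each from 0) is plotted by hours of treatment (x axis) for every library, with circles for DMSO, triangles for dCBP-30, a bar at the mean of 3 libraries and crosses for the 2 libraries without 4sU. CDKN1B triangles lie at 35.3% to 55.8% and its circles at 59.1% to 77.8%, and the 3 CCNE2 triangles at 24 h spread from 0% to 100% on a sum of 7 T>C reads.

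A list of 60 other genes of the passage from G1 to S was also chosen with earlier results of these data known. Of these genes, 54 were tested in T>C reads and 55 in total reads. At 2 h 4 were called lower in T>C reads, and at 6 h 9 were, beside 7.14% and 17.1% of all genes, and 37 at 24 h, beside 31.2%. edgeR called 0 higher at 2 h, 1 at 6 h and 0 at 24 h, with 11, 3 and 0 higher at an unadjusted p under 0.05, and DESeq2 with size factors from total reads called 0, 2 and 0. In total reads 1, 6 and 32 of 55 were called lower at the same times, beside 1.25%, 8.67% and 16.1% of all genes. Called higher were 0, 1 and 0, beside 0.457%, 7.47% and 15.0%, with 4, 16 and 6 higher at an unadjusted p under 0.05. The median log2 fold change in T>C reads over these genes was 0.10, -0.36 and -1.79 at 2, 6 and 24 h.

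The D-type cyclins CCND1 and CCND2 fell at the first time point, where CCND3 was higher. T>C reads of CCND2 were 19.2, 18.3 and 17.0 RPM under dCBP-30 and 145, 189.5 and 139 RPM in DMSO at 2 h (log2 fold change -3.12, SE 0.18, adjusted p = 4.0e-22), and its log2 fold change was -5.22 at 6 h and -2.67 at 24 h. CCND1 was -2.71 at 2 h, and at 6 h the dCBP-30 libraries held 0, 0 and 6 T>C reads against 168, 216 and 173 in DMSO, a ratio of sums of 0.00924 with a counting interval of 0.00338 to 0.0202. At 24 h they held 2, 0 and 0 against 285, 276 and 317, a ratio of 0.00190 (0.000230 to 0.00689). The other genes called at 2 h, named here after their values were seen, were E2F2 (-1.87), an E2F activator, and CDKN1A (-1.61), an inhibitor of the family of CDKN1B and the 1 gene tested of 5 inhibitors listed. TFDP2, a partner of E2F factors, was the 1 gene called higher at 6 h, at 2.22, 2.00 and 5.76 RPM against 1.06, 0.469 and 0.814 RPM (log2 fold change 2.08, SE 0.67, adjusted p = 0.016). The third dCBP-30 library was the highest, and the call was lost without it (1.42, adjusted p = 0.19), without DMSO 6 h replicate 2 (1.82, adjusted p = 0.081) and with reads summed over transcripts (1.82, adjusted p = 0.058).

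By group, the E2F target genes of S phase had a median log2 fold change of 0.41 in T>C reads at 2 h. That of all genes tested was 0.05, and edgeR called 0 of the 16 higher. Of the 16, 3 were higher within 2-fold at an adjusted p under 0.05 by edgeR, and the share of all genes at that rule is not given here. These 16 genes fell together at 24 h. All 16 were called lower there, with a median log2 fold change of -3.31, while edgeR called 0 of them lower at 2 h and 1 at 6 h, UNG, named after its values were seen (-1.11), a call lost without DMSO 6 h replicate 1 (-0.96) and with libraries scaled by their T>C reads (-0.79). CDC6, which loads the replicative helicase, fell furthest among these 16 genes, with 0, 4 and 2 T>C reads under dCBP-30 and 111, 152 and 148 in DMSO, a ratio of 0.0122 (counting interval 0.00445 to 0.0267). Of the E2F and DP factors 6 of 9 fell at 24 h, E2F2 among them (log2 fold change -4.92, SE 0.30, adjusted p = 4.0e-16), as did 7 of 11 G1 cyclins and kinase partners, 3 of 7 pocket protein partners and 4 of 10 genes that turn over the products of CDKN1B and CCNE1, all to be read beside the 31.2% of all genes called lower at 24 h. The counts of pocket protein partners and turnover genes lie near that share. The markers of plasma cells fell over the same times, and their part was not tested.

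**Figure D5:**
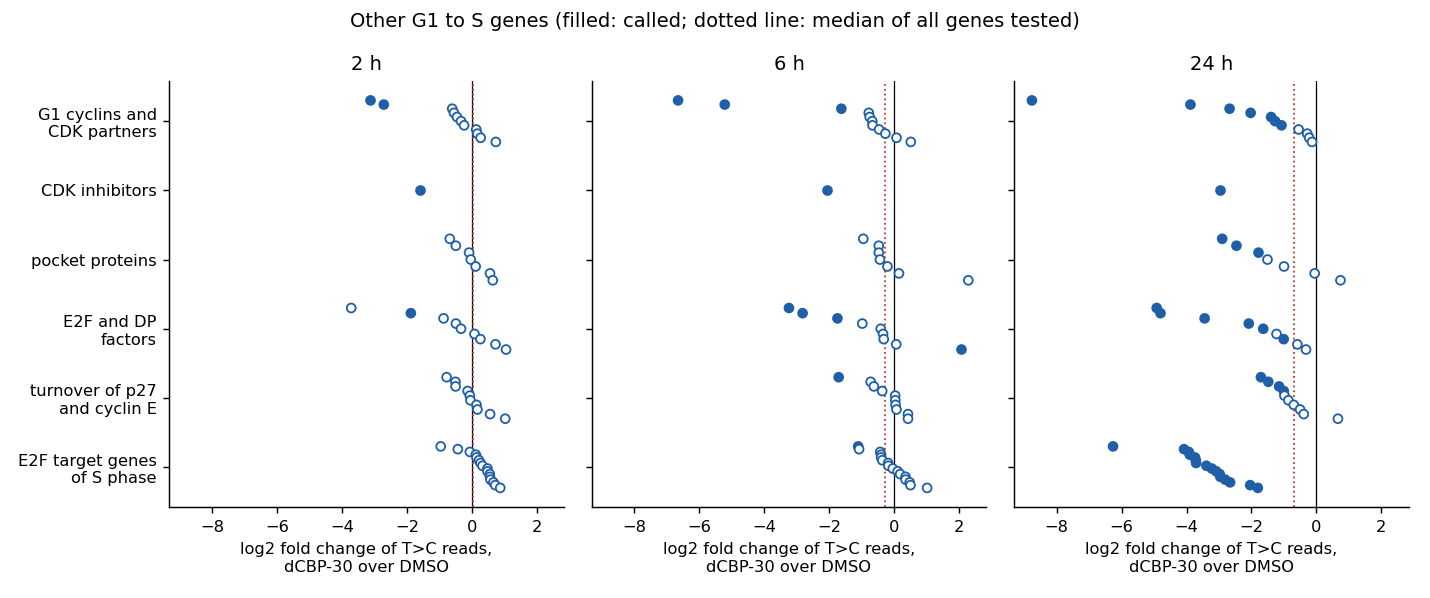
Each point is 1 of 54 other G1 to S genes, placed by its log2 fold change of T>C reads, dCBP-30 over DMSO (x axis), in rows by gene group and in 1 panel per time point, with filled points for called genes and a dotted line at the median of all genes tested. The E2F target genes of S phase lie between -0.95 and 0.88 at 2 h and are all filled and between -6.27 and -1.80 at 24 h.

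As a description of pattern, the T>C level of each member on the log2 scale was correlated with that of 7558 genes averaging 20 or more T>C reads, over the 18 labelled libraries, which share their groups and scaling. Among the most alike genes were TUBB4B (r = 0.904) and NFATC2IP (r = 0.874) for CCND3, MPHOSPH10 (r = 0.964) for CDK4, AEN (r = 0.968) and RASA3 (r = 0.967) for CDK6, and UHRF1 (r = 0.963) and PCLAF (r = 0.957) for CDK2. For the E-type cyclins they were DNPH1 (r = 0.973) for CCNE1 and RRM2 (r = 0.954) and DONSON (r = 0.947) for CCNE2, and for the inhibitors STK17B (r = 0.983) for CDKN1B and FLOT2 (r = 0.869) and CCNI (r = 0.863) for CDKN2D. For E2F1 they were EZH2 (r = 0.963) and HAUS8 (r = 0.953), and RB1 was below the limit of 20 reads. Among pairs of members, CDK2 and CCNE2 were the most alike (r = 0.938), and CCNE2 and CDKN2D the least (r = -0.765).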

How the data were processed

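SLAM-seq of MM1.S cells gave 18 libraries labelled with 4sU (6 groups of 3) and 2 without 4sU, grouped by their labels. The authors used Trim Galore and then Slamdunk at its defaults against hg38 UTRs, dropped reads that multimapped or were of low quality, summed them by transcript, and deposited raw counts of reads, T>C reads and conversions per transcript for each library, with no normalization or pooling. A Drosophila RNA spike-in was added before alkylation, and its reads were not used here. Multimapping can move counts between genes, and a T>C read can also come from a sequencing error or a variant, which the libraries without 4sU measure.

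Of 97466 transcript rows per file, 91.4% matched GENCODE release 44, and the others held 0.0789% to 0.199% of the reads. Each gene took its transcript with the most reads, which gave 19593 genes. Depth was 12439665 to 18727385 reads in the labelled libraries and 14859502 and 17116802 in those without 4sU. Libraries of a group were not copies of each other (chi-square per degree of freedom 8.54 to 50.1).

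Tests ran in edgeR 4.0.16 with limma 3.58.1, and in DESeq2 1.42.0 as an alternative (R 4.3.3); other steps ran in Python 3.11.15. edgeR's robust quasi-likelihood test took T>C reads from all 18 labelled libraries, each group with its own mean, with total reads times TMM factors as library size, a minimum count of 10 in filterByExpr, and Benjamini-Hochberg adjustment over 10083 genes, and to total reads of 12267 genes in the same way. Differences between time points were interaction contrasts. Shares were tested as the odds of a T>C read with library blocks, called at an adjusted p under 0.05. The scripts were tested on simulated data with 200 genes changed at 24 h. At an adjusted p under 0.05 they recovered 18% of 2-fold and 66% of 4-fold changes in T>C reads. In total reads they recovered 64.5% and 83.5%, and in shares 22% of 4-fold changes in odds. A gene without a call may therefore have changed by such an amount. Levels of different genes were not compared, since counts on UTRs of different lengths do not share a scale.

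The genes named are the 10 members, the 2 genes most like each (3 of which are not reported here), and, from 60 other G1 to S genes, the called genes with the largest change in each direction (2 at 2 and 6 h, 3 at 24 h, averaging 20 or more T>C reads in whichever group was higher). The members and lists were chosen with earlier results of these data known. The alternatives were scaling by T>C reads, no TMM factors, DESeq2 with size factors from total or T>C reads, each time point alone, no filter, a mean of at least 20 reads, reads summed over transcripts, a replicate block, background subtraction, an adjusted p under 0.1 and leaving out each library. Promoter sequences are RefSeq's.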

Additional observations from a re-analysis of the deposited data

Results flagged for a closer look

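The dCBP-30 change of the members differed between time points in 39 comparisons at an adjusted p under 0.05, by edgeR's test of the difference itself. Each of the 10 members was tested between every pair of time points in both measures. The shares of all genes, given above, reached 23.0%. Of 18 omissions of a library, 8 ended the CDK4 call between 2 and 6 h and 2 the CCND3 call between 6 and 24 h in T>C reads. In total reads 7 ended the CCNE1 call between 2 and 6 h and 5 the RB1 call between 6 and 24 h. Values are log2 differences, the later change minus the earlier one, and comparisons that share a time point share its libraries.

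In T>C reads between 2 and 24 h they were -2.63 for CCND3, -1.74 for CDK4, -1.30 for CDK6, -2.67 for CDK2, -3.50 for CCNE1, -5.24 for CCNE2, 0.81 for CDKN1B and -4.14 for E2F1. Between 6 and 24 h they were -1.77 for CCND3, 1.25 for CDK6, -2.72 for CDK2, -2.58 for CCNE1, -4.47 for CCNE2 and -3.63 for E2F1, and between 2 and 6 h -0.999 for CDK4 and -2.55 for CDK6.

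In total reads between 2 and 24 h they were -1.55 for CCND3, -1.39 for CDK4, -1.72 for CDK6, -1.89 for CDK2, -2.70 for CCNE1, -4.63 for CCNE2, 1.31 for CDKN1B, 1.82 for CDKN2D and -3.86 for E2F1. Between 6 and 24 h they were -1.65 for CCND3, -0.84 for CDK4, 1.00 for CDK6, -2.65 for CDK2, -2.06 for CCNE1, -4.18 for CCNE2, 0.86 for CDKN1B, 1.43 for CDKN2D, 0.94 for RB1 and -4.30 for E2F1, and between 2 and 6 h -0.55 for CDK4, -2.72 for CDK6, 0.77 for CDK2 and -0.64 for CCNE1. The groups of 3 libraries are too small for a test of single libraries that stand apart.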

How the results depend on the processing

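Of 4478 values of single genes recomputed over 11 alternatives and 18 omissions of a library, 4343 kept their direction where called and their side of the threshold, 101 lost a call, 34 gained one and 0 reversed. Of 504 counts, 465 stayed within 1.5 times. Among the 10 members, the count called higher in T>C reads at 2 h went from 1 to 0 without a filter on low counts, with the replicate block and with the background subtracted. Scaling by T>C reads, total reads without TMM factors and DESeq2 with size factors from T>C reads each called 1 member lower at 6 h (from 2) and 1 higher at 24 h (from 0). Without TMM factors 1 member was higher in total reads at 6 h (from 0) and 2 at 24 h (from 1). The median of all genes in T>C reads at 6 and 24 h was -0.27 and -0.69 as reported, 0.04 and -0.04 with scaling by T>C reads, and 0.04 and -0.16 without TMM factors. Of the other G1 to S genes, 1 was called higher at 2 h (from 0) without TMM factors, with each time point alone, without a filter, with background subtracted and at an adjusted p under 0.1. At 6 h (from 1) the count was 3 with scaling by T>C reads, without TMM factors, with DESeq2 on T>C size factors and at an adjusted p under 0.1, 2 with DESeq2 on total size factors and with each time point alone, and 0 with reads summed over transcripts. At 24 h (from 0) it was 1 with scaling by T>C reads, without TMM factors and with DESeq2 on T>C size factors. For each of these shifts the cause was not tested.

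Leaving out each library gave 1 to 2 members lower and 0 to 1 higher in T>C reads at 2 h, 2 to 3 lower and 0 to 0 higher at 6 h, and 7 to 8 lower and 0 to 1 higher at 24 h. In total reads it gave 1 to 1, 1 to 1 and 6 to 7 lower and 0 to 0, 0 to 0 and 1 to 1 higher. For the other G1 to S genes it gave 4 to 5, 7 to 10 and 34 to 39 lower and 0 to 1, 0 to 2 and 0 to 0 higher in T>C reads.

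The replicate numbers did not pair the libraries. Deviations of libraries with the same number correlated between -0.0641 and 0.0202 in T>C reads and between -0.427 and 0.126 in total reads. In total reads 1 of 9 such pairs was over 0.1, and libraries did not all correlate best with their own number. Pairs with different numbers correlated between -0.061 and 0.094 in T>C reads. In total reads they reached from -0.346 to 0.463, the highest being dCBP-30 replicate 3 with DMSO replicate 1 at 6 h. What such libraries share was not tested, and the tests did not model it. With the replicate block, CCND3 in T>C reads at 2 h had an adjusted p of 0.058, the CDK4 difference between 6 and 2 h in T>C reads had an adjusted p of 0.063, the CCNE1 difference in total reads 0.067, and the CCND3 difference between DMSO groups 0.068 (log2 difference 1.14). The block changed no other call of a member.

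Depth limits RB1 and CCNE2 most, whose T>C reads are few, and a fold of 2 for CCND3 at 24 h in total reads lies within its standard error. Only 3 libraries per group were available, the spike-in was not used, and every scaling assumes a shared reference, so changes common to most genes depend on it.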

Other observations

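The 2 libraries without 4sU, whose treatment the labels do not give, held 246 and 246 RPM of total reads of CDKN1B, above the 136 to 177 RPM of all 9 DMSO libraries labelled with 4sU. Total reads of CDK2 in these 2 libraries were 174 and 166 RPM, below the 193 to 232 RPM of the DMSO libraries. These values were noticed after the data had been seen, and the labels put the 2 libraries in no treatment group, so no comparison was tested.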
